A study of Mus musculus with 6 samples.

Results

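The RNA of 10 genes of the NF-κB pathway was followed in hematopoietic stem cells (HSCs) of CD74-/- and WT mice. The genes were taken by symbol, with earlier results of these data known. They are the 5 NF-κB subunits Rela, Rel, Relb, Nfkb1 and Nfkb2, the IκB kinase genes Ikbkb and Chuk, and the feedback inhibitors Nfkbia and Tnfaip3. The last is Taf4b, a subunit of the general transcription factor TFIID that acts as a coactivator of RelA. Each symbol had 1 row among the 19846 genes of the deposited table, and all 10 passed the minimum mean of 10 normalized counts with which 14892 genes were tested. The cells were CD34-/LSK cells (lineage-negative, Sca-1+, c-Kit+, CD34-) sorted from the bone marrow of 3 CD74-/- and 3 WT C57BL/6 mice aged 6 to 8 weeks, and each of the 6 libraries was made from 1000 cells. The labels name no treatment. The mutant mice lack CD74 in all of their cells and not in HSCs alone, and whether the 6 animals were littermates is not given in the sources used here. The libraries were made with SMART-Seq v4, which does not keep the strand, and p values compare these libraries, taken as 1 mouse each.

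NF-κB proteins bind DNA as pairs of subunits. RelA, c-Rel and RelB carry a transactivation domain, whereas the products of Nfkb1 and Nfkb2 are made as longer precursors that are processed to the DNA-binding subunit. In resting cells IκBα, the product of Nfkbia, holds the pairs in the cytoplasm. Stimuli activate the IκB kinase complex, in which IKKβ (Ikbkb) and IKKα (Chuk) are the catalytic subunits, and IκBα is then phosphorylated and degraded. NF-κB in turn drives transcription of Nfkbia and of Tnfaip3, which encodes a ubiquitin-editing enzyme, so that both genes serve as feedback inhibitors and as readouts of recent NF-κB activity. In mature B cells, CD74 is known to signal to RelA and its coactivator TAF4b through its released intracellular domain, and the comparison here asks whether the RNA of these genes differed in HSCs that lack CD74. RNA levels do not measure the location or the activity of NF-κB proteins.

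Sequences that match the κB consensus, the kind of site that NF-κB binds, lie in front of some of these genes. Promoter sequences of RefSeq on GRCm38.p6 were found for 6 of the 10 genes, and 4 of them (Tnfaip3, Rel, Nfkbia and Nfkb2) held a match to the κB consensus of 10 bases on either strand in the 250 bases before the start, at 1 or more of their start sites. Counted in the same way, 1204 of 27025 mouse genes with a promoter entry held a match (4.46%), and of the 32851 single promoters 1281 did (3.90%). Rela and Chuk held no match in this window. Matches are a description of these letters and were not tested for binding. The stretches that hold the matches are shown 5′ to 3′ on the strand of the gene, with the κB matches in capitals; bases that lie in an annotated untranslated region were left out for Rel, and for Nfkb2, whose upstream window lies wholly in such a region, the 30 bases from 10 before its first match are shown.
Nfkbia, chr12:55492648-55492777, minus strand: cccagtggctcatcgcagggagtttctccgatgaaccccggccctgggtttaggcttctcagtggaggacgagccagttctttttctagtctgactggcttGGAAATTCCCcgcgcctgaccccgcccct
Tnfaip3, chr10:19015411-19015540, minus strand: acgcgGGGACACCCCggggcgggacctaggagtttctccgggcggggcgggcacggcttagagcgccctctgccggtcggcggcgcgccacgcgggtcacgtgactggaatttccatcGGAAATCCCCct
Rel, chr11:23770971-23771099, minus strand: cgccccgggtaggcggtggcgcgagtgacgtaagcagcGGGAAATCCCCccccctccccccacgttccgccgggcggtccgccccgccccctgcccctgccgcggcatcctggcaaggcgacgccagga
Nfkb2, chr19:46304688-46304717, plus strand: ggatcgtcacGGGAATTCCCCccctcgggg
The match of Nfkbia begins 29 bases before the start site, and those of Tnfaip3 begin 125 and 12 bases before it. The capitals of Rel and of Nfkb2 each hold a pair of overlapping matches, and Nfkb2 has a further match, GGGGCTTTCC, which begins 11 bases before the start. At its other start sites, Nfkb2 has matches farther off, 236 and 225 bases before. Nfkbia, Tnfaip3, Rel and Nfkb2 are thus the genes with such a sequence among the 6 with a promoter entry, and none of them passed the test between the genotypes.

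The genotype labels were checked with Cd74 itself, which had 46.0, 72.0 and 72.8 normalized counts in CD74-/- libraries and 3287, 2459 and 3107 in WT libraries. Per library, 14390534 to 16198678 reads fell in genes. All 15 stem cell markers were measured and none passed the limma test; 13 of them had negative log2 fold changes, with a median of -0.23. All 4 progenitor markers had positive values, with a median of 0.51. Of them, 2 were higher in CD74-/- without overlap, as were 797 of the 14892 tested genes, and did not pass the test. RNA of 1 of these 2 progenitor markers, Cd34, whose surface protein the gate selects against, was at 7097 to 11830 normalized counts in CD74-/- and 5240 to 6834 in WT libraries. Marker RNA of other blood cells was present and in part differed with genotype. All 12 B cell markers had negative log2 fold changes, with a median of -4.72. Their sums were 1222 to 3143 normalized counts in CD74-/- and 3280 to 10988 in WT libraries. Of these markers, 11 were lower at an unadjusted limma p under 0.05, beside 4.6% of all tested genes. Among the 12, 1 passed the limma test and 4 that of DESeq2. For neutrophil markers 12 of 13 were negative, with a median of -2.62 and 11 of them lower at an unadjusted limma p under 0.05. Their sums were 38577 to 158750 in CD74-/- and 169150 to 1002271 in WT libraries. Limma called 0 and DESeq2 called 2 of these markers. Monocyte and macrophage markers were negative for 10 of 12, with a median of -1.92, 5 of them at an unadjusted limma p under 0.05 and 0 called by either tool, and sums of 10964 to 42049 in CD74-/- and 31960 to 53749 in WT libraries. Dendritic cell markers were negative for 7 of 9 tested, with log2 fold changes from -5.11 to 2.76. Their sums overlapped, at 6338 to 7575 in CD74-/- and 6460 to 8161 in WT libraries. T and NK cell markers were negative for 4 of 9. All 10 tested erythroid markers were negative, with a median of -3.31 and 7 of them at an unadjusted limma p under 0.05. Among them, 2 passed the limma test and 5 that of DESeq2. Their sums were 1571 to 4076 in CD74-/- and 11701 to 39042 in WT libraries. Of single markers, Siglech, of plasmacytoid dendritic cells and called by DESeq2, was at 0 in all CD74-/- libraries and Fcrla at 0 in 2 of them. As mature blood cells also use the NF-κB pathway, these values stand beside each difference described here, and their part in it was not tested. In bulk RNA, fewer cells of a type and less RNA per cell cannot be told apart.

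None of the 10 genes passed the limma test over all genes (0 of 10, against 0.0873% of the 14892 tested genes), and none reached an unadjusted limma p under 0.05, which 4.6% of tested genes did in the lower and 3.14% in the higher direction. DESeq2 on the recovered reads called 0.756% of genes and also 0 of the 10. By its unadjusted p, 1 of the 10, Rela, was lower under 0.05, as were 4.69% of genes. In the median the 10 genes had a log2 fold change (CD74-/- over WT) of -0.06, with 5 above and 5 below 0, beside a median of -0.03 over all tested genes. The width of the 95% confidence intervals differs between the genes, and so does the size of a change that these libraries would have shown.

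Rela, which encodes the RelA subunit, was the only one of the 10 genes whose libraries did not overlap between the genotypes. It had 489, 477 and 455 normalized counts in CD74-/- libraries, against 829, 650.4 and 627 in WT libraries. Each CD74-/- library thus lay below each WT library, and the CD74-/- values lay close together, with a coefficient of variation of 3.65% in CD74-/- and 15.8% in WT. The mean was 474 ± 17.3 in CD74-/- and 702 ± 111 in WT (SD, n = 3 each), a ratio of 0.674. The log2 fold change was -0.56, with a standard error of 0.269 and a 95% confidence interval of -1.16 to 0.04, and it did not pass the test (limma adjusted p = 0.668, unadjusted p = 0.065; DESeq2 adjusted p = 0.574, unadjusted p = 0.0446; exact permutation p = 0.1, the smallest that 3 libraries against 3 allow). Over the 14 alternative settings it stayed between -0.63 and -0.43, with adjusted p values of 0.299 to 0.963. Being 1 of 10 genes with such an order stands beside 7.47% of all tested genes (1112 genes) that were lower in CD74-/- without overlap.

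**Figure D1:**
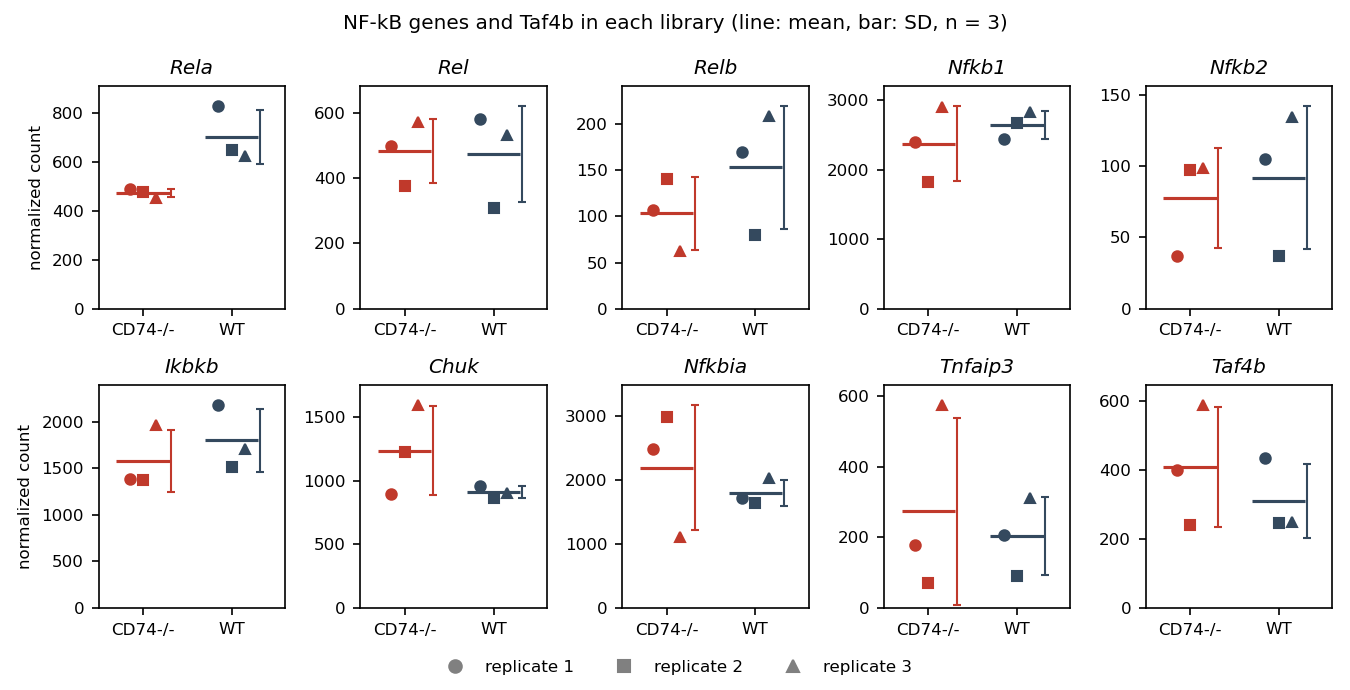
Normalized counts (y axis, from 0) of the 10 genes in each CD74-/- library (red, left) and WT library (dark blue, right); circles, squares and triangles are replicates 1, 2 and 3, lines are means and bars are SD (n = 3). The groups are apart for Rela alone, at 455 to 489 in CD74-/- and 627 to 829 in WT, while the triangle of CD74-/- replicate 3 is at the top for Nfkb1, Chuk, Tnfaip3 and Taf4b and at the bottom for Relb and Nfkbia.

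The other subunits with a transactivation domain did not show this order. Rel, which encodes c-Rel, had 499.9, 377 and 574 normalized counts in CD74-/- and 582, 308 and 534 in WT libraries. The CD74-/- range lay within the WT range, and the log2 fold change was 0.06 with an interval of -0.71 to 0.82 (limma adjusted p = 0.975); its sign turned without CD74-/- replicate 3 (-0.08) and without WT replicate 2 (-0.23). Relb, the subunit of the noncanonical pathway that is itself an NF-κB target, was at 107, 141 and 62.5 in CD74-/- and 170.2, 79.7 and 209 in WT libraries. Its log2 fold change of -0.53 was near that of Rela, but the groups overlapped and the interval of -1.74 to 0.68 was wide (limma adjusted p = 0.815; exact permutation p = 0.4). It was -0.21 without CD74-/- replicate 3, -0.25 without WT replicate 3 and -0.94 without WT replicate 2.

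The precursor genes overlapped between the genotypes as well. Nfkb1 had 2399.7, 1821 and 2902 normalized counts in CD74-/- and 2438, 2678 and 2839 in WT libraries, so that the CD74-/- libraries held both its lowest and its highest value. Its log2 fold change was -0.18 with an interval of -0.70 to 0.33 (limma adjusted p = 0.853), which on the linear scale is 0.618 to 1.26 times the WT level. It was -0.0041 without CD74-/- replicate 2 and -0.34 without CD74-/- replicate 3. Nfkb2 was the lowest of the subunits, with 37.2, 97.3 and 98.4 normalized counts in CD74-/- and 105, 36.7 and 134 in WT libraries, and 38 to 142 reads behind each value. Each group held 1 low library, and the log2 fold change of -0.18 (interval -1.68 to 1.33; limma adjusted p = 0.961) turned to 0.28, 0.19 and 0.01 without CD74-/- replicate 1, WT replicate 3 and WT replicate 1. Some 18.1% of the exon bases of Nfkb2 also lie in genes on the opposite strand, whose reads cannot be told apart in these libraries.

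Chuk was on average higher and Ikbkb on average lower in CD74-/- HSCs, neither beyond the spread between libraries. Ikbkb had 1391, 1378 and 1965 normalized counts in CD74-/- and 2177, 1519 and 1709.6 in WT libraries. Replicates 1 and 2 of CD74-/- lay below all WT libraries and replicate 3 lay among them, and the log2 fold change was -0.19 with an interval of -0.75 to 0.36 (limma adjusted p = 0.857). It was -0.050 without WT replicate 1 and -0.36 without CD74-/- replicate 3. Chuk had 894, 1221 and 1589 in CD74-/- and 958, 866 and 902 in WT libraries. Its coefficient of variation was 5.08% in WT and 28.2% in CD74-/-, and 2 of the 3 CD74-/- libraries were above all WT libraries. The log2 fold change was 0.40 with an interval of -0.20 to 1.00 (limma adjusted p = 0.730; exact permutation p = 0.3), and it was 0.20 without CD74-/- replicate 3.

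**Figure D2:**
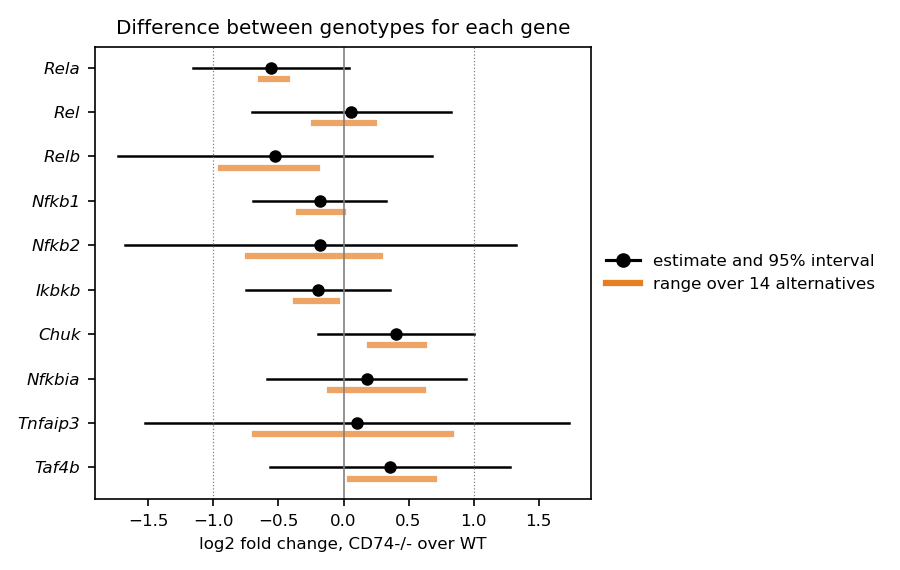
Log2 fold change of CD74-/- over WT on log2(normalized count + 1) for each gene (points), with the 95% confidence interval of limma (black lines) and the range over 14 alternative settings (orange bars); dotted lines mark a doubling and a halving. The interval of every gene includes 0; those of Rela (-1.16 to 0.04) and Chuk (-0.20 to 1.00) reach least across it, and those of Tnfaip3, Nfkb2 and Relb are the widest.

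The share of Ikbkb in the IκB kinase pair was lower in every CD74-/- library, without passing a test. To set the genes beside each other, counts were divided by the length of the merged exons. Ikbkb then made up 29.3%, 23.1% and 24.8% of the Ikbkb and Chuk RNA in CD74-/- libraries, against 37.7%, 31.9% and 33.6% in WT libraries. All CD74-/- libraries lay below all WT libraries, at 25.8% ± 3.20 in CD74-/- and 34.4% ± 3.02 in WT (SD, n = 3 each), a difference of -8.64 percentage points (exact permutation p = 0.1, the smallest possible; Benjamini-Hochberg adjusted p = 0.70 over the 7 shares computed). The level of the share depends on the length used. By the longest transcript the share was 48.4% in CD74-/- and 58.6% in WT, and with no length it was 56.4% in CD74-/- and 66.2% in WT. In a share of 2 genes the lengths cannot change the order of the libraries, so these values are not separate results. No gene of the pair was apart on its own.

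Among the 5 subunits, Rela made up 34.6%, 37.5% and 29.4% of the RNA per kb in CD74-/- libraries and 43.8%, 42.0% and 34.4% in WT libraries. The groups overlapped in this share, with a mean of 33.8% ± 4.06 in CD74-/- and 40.1% ± 5.01 in WT (SD, n = 3 each; exact permutation p = 0.3). Rel was at 12.2% to 15.3% in CD74-/- and 8.20% to 12.6% in WT libraries, and Nfkb1 at 42.5% ± 5.71 in CD74-/- and 38.8% ± 5.70 in WT (exact permutation p = 0.2 and p = 0.5; n = 3 each). These levels depend on the length used. By the longest transcript Rela was at 20.5% ± 3.50 in CD74-/- and 25.1% ± 3.90 in WT (SD). Nfkb1 was then at 65.8% ± 5.51 in CD74-/- and 62.1% ± 5.70 in WT (SD). Relb and Nfkb2 together were a minor part in all libraries. None of the 7 shares passed the test after adjustment.

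**Figure D3:**
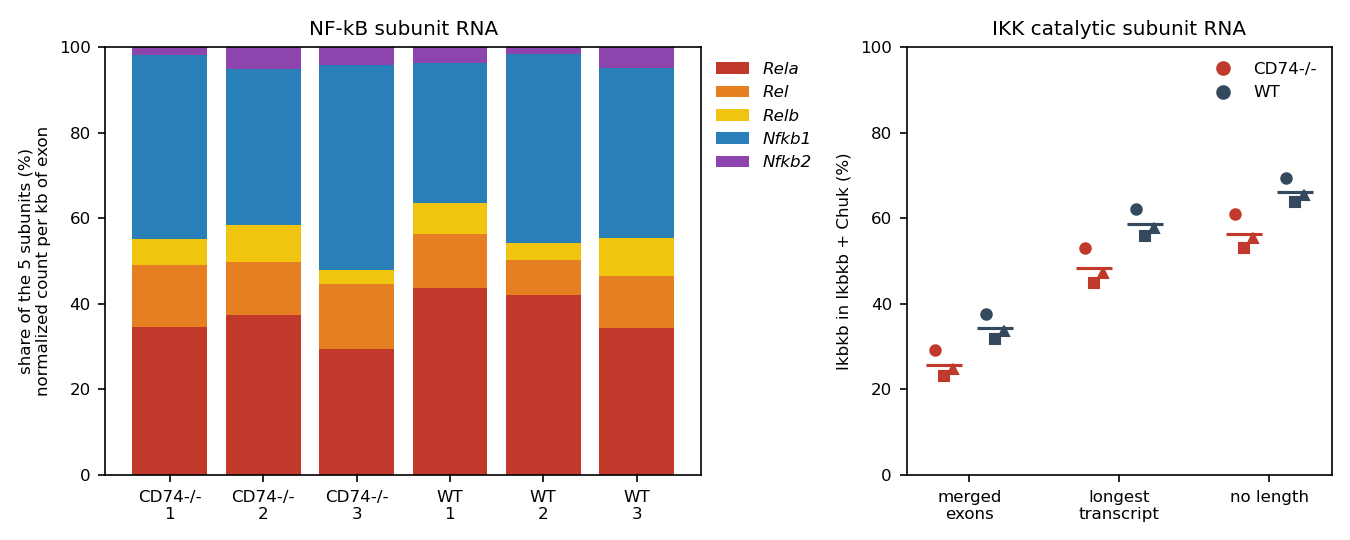
Left, share of each NF-κB subunit (colours) in the normalized counts per kb of exon of the 5 subunits, as a stacked bar for each library (percent); right, share of Ikbkb in Ikbkb and Chuk (percent) by 3 ways of dividing by length, with circles, squares and triangles for replicates 1, 2 and 3 of CD74-/- (red) and WT (dark blue) and lines for means. The Ikbkb share of every CD74-/- library is below that of every WT library, while the Rela share overlaps between the genotypes. The length used moves the level of the Ikbkb share and cannot change the order of the libraries.

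By level per kb of merged exon, Nfkbia stood far above the other genes in both genotypes, at 1360 ± 601 normalized counts per kb in CD74-/- and 1112 ± 127 in WT (SD, n = 3 each). In CD74-/- libraries Chuk (243 ± 68.4), Nfkb1 (197 ± 44.9) and Rela (154 ± 5.62) followed, and the SDs of neighbours in this order met. In WT libraries the order was Rela (229 ± 36.0), Nfkb1 (219.9 ± 16.7) and Chuk (179 ± 9.07), with Chuk below Nfkb1 by more than the SDs of both. Ikbkb came next, at 82.7 ± 17.6 in CD74-/- and 94.4 ± 17.8 in WT, and was below its upper neighbour by more than the SDs in either genotype. Taf4b, Rel, Tnfaip3, Relb and Nfkb2 lay under it, down to 16.9 ± 7.64 for Nfkb2 in CD74-/- and 20.1 ± 10.9 in WT, with the SDs of neighbours overlapping. The place of Ikbkb and Nfkb1 depends on the length taken, as their merged exons are far longer than their longest transcript.

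The feedback inhibitors ran in opposite order over the CD74-/- libraries, and neither passed the test. Nfkbia had 2475, 2982 and 1111 normalized counts in CD74-/- and 1714, 1635 and 2021 in WT libraries. CD74-/- replicates 1 and 2 thus lay above all WT libraries and replicate 3 below them, which gave a coefficient of variation of 44.2% in CD74-/- and 11.4% in WT. The log2 fold change was 0.18 with an interval of -0.59 to 0.94 (limma adjusted p = 0.918). It rested on single libraries: without CD74-/- replicate 3 it was 0.61 (limma adjusted p = 0.152), and without CD74-/- replicate 2 it was -0.10.

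Tnfaip3 had 179, 70.0 and 574 normalized counts in CD74-/- and 207, 90.5 and 311 in WT libraries. CD74-/- replicate 3, the lowest of all libraries for Nfkbia, was the highest for Tnfaip3, and CD74-/- replicate 2, the highest for Nfkbia, was the lowest for Tnfaip3. In WT libraries replicate 2 was the lowest and replicate 3 the highest for both genes. The highest CD74-/- library was 8.20 times the lowest, against 3.44 times in WT, and behind the values stand 69 to 560 reads. The log2 fold change was 0.10 with an interval of -1.53 to 1.73, or 0.347 to 3.32 times the WT level (limma adjusted p = 0.980; exact permutation p = 1.0). It was -0.68 without CD74-/- replicate 3 and -0.39 without WT replicate 2, so that no direction can be given for this gene.

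Taf4b, on the same chromosome as Cd74 but 45.9 Mb away, had 400.1, 239 and 587 normalized counts in CD74-/- and 436, 246 and 249.8 in WT libraries. The groups overlapped over most of their range, at a mean of 409 ± 174 in CD74-/- and 311 ± 108 in WT (SD, n = 3 each), and the log2 fold change was 0.36 with an interval of -0.57 to 1.28 (limma adjusted p = 0.844; exact permutation p = 0.7). It was 0.05 without CD74-/- replicate 3, 0.69 without CD74-/- replicate 2 and 0.63 without WT replicate 1. Its paralogue Taf4, the more widely expressed subunit, had 826, 628 and 1176 in CD74-/- and 731, 651 and 814 in WT libraries, a log2 fold change of 0.22. Per kb, Taf4b made up 28.9% ± 2.98 of the RNA of the pair in CD74-/- and 27.3% ± 6.83 in WT (SD, n = 3 each; exact permutation p = 0.8).

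CD74-/- replicate 3 took the extreme place for 7 of the 10 genes, as the highest library for Nfkb1, Chuk, Tnfaip3 and Taf4b and the lowest for Rela, Relb and Nfkbia. The share of all tested genes with this library at an extreme was not computed. In a principal component analysis over all tested genes, it also lay apart, at -119 on the second component. CD74-/- replicates 1 and 2 were at 70.3 and 46.2 there, and WT libraries at -8.17 to 11.8. CD74-/- replicate 1 was never the highest or the lowest of the 6. The median coefficient of variation of the 10 genes was 33.1% in CD74-/- and 24.8% in WT libraries, beside 36.6% in CD74-/- and 27.8% in WT over all tested genes. The values of Tnfaip3 and Nfkb2 rest on fewer reads than those of Nfkb1, Ikbkb and Nfkbia, which had at least 1084 in each library.

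With limma the wider pathway held no called gene either. It was described with 7 lists of other NF-κB inhibitors, proteins that signal to the IκB kinases, other negative regulators, receptors, textbook target genes, TFIID subunits and immediate early genes. The target genes include Relb and Nfkb2, 2 of the 10 genes described above, which are counted again here. Of 133 genes listed, 128 had a row and 121 were tested. Of these, 0 passed the limma test, and the median log2 fold change was 0.03. At an unadjusted limma p under 0.05, 7 were higher (5.79%) and 3 lower (2.48%), beside 3.14% higher and 4.6% lower over all tested genes. By list, those higher were 3 immediate early genes, 2 TFIID subunits, 2 target genes and 1 gene that signals to the kinases. Ier3 is in both the target and the immediate early list. The higher share thus rests largely on the TFIID and immediate early lists. Of the 34 tested target genes, 18 had positive and 16 negative values with a median of 0.03, and of the 30 genes that signal to the IκB kinases 15 were positive and 15 negative. The 14 tested receptor genes had the lowest median, -0.41, with 9 of them negative and 0 at an unadjusted p under 0.05 in either direction; without WT replicate 3 this median was -0.13. The receptor gene Cd40, which marks B cells and dendritic cells, was at 0 in all CD74-/- libraries. In WT libraries it was at 18.2, 3.58 and 11.4, on 17, 4 and 12 reads, and its mean was under the minimum for testing. Tlr1, the other receptor gene under this minimum, was also at 0 in all CD74-/- libraries, and at 13.9, 0 and 1.89 in WT libraries. Of the 14 tested immediate early genes, 3 were higher and 0 lower at an unadjusted p under 0.05, with a median of 0.11. DESeq2 on the recovered reads called 2 genes of these lists, Mmp9 lower and Jun higher, beside 0.756% of all genes.

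**Figure D4:**
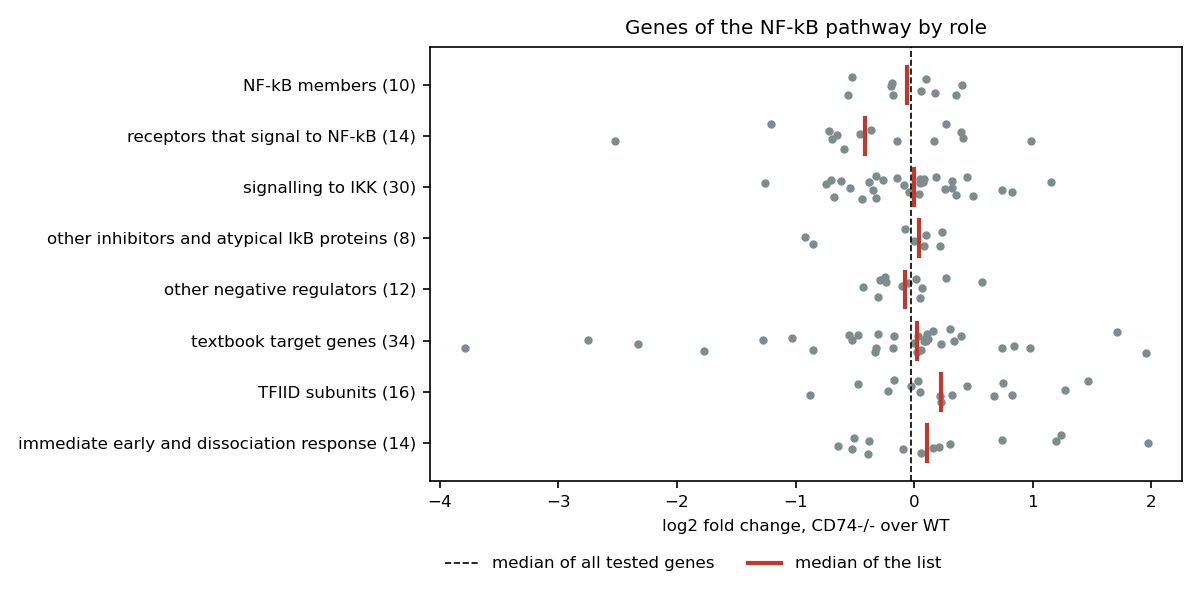
Log2 fold change of CD74-/- over WT (x axis) for each tested gene (grey points) of the 10 NF-κB genes and of 7 lists of the wider pathway, with the number tested in brackets; red lines are medians of the lists and the dashed line is the median of all tested genes (-0.03). The medians lie close to the dashed line except for receptors (-0.41) and TFIID subunits (0.22), and target genes are spread widely to both sides.

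Mmp9, a matrix protease that is both an NF-κB target and a neutrophil granule protein, had 104, 65.9 and 166 normalized counts in CD74-/- and 2320.2, 265 and 573 in WT libraries. Its groups did not overlap (log2 fold change -2.75; limma adjusted p = 0.402, DESeq2 adjusted p = 1.5e-04). It is itself 1 of the 13 neutrophil markers given above, and its counts are part of their sums. Ier3, a target gene that also belongs to the immediate early genes and is linked to cell survival, was at 1248, 1155 and 1018 in CD74-/- and 522, 904 and 661 in WT libraries. All CD74-/- libraries lay above all WT libraries, with a log2 fold change of 0.74 (limma adjusted p = 0.583, DESeq2 adjusted p = 0.388). Jun, the AP-1 subunit that is induced by stress and by cell isolation, had 318, 151 and 219 in CD74-/- and 70.6, 62.7 and 37.8 in WT libraries, a log2 fold change of 1.97 without overlap (limma adjusted p = 0.422, DESeq2 adjusted p = 0.025). Over all 14892 tested genes, 797 were higher and 1112 lower in CD74-/- without overlap.

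Of the genes upstream of the kinases, Map3k7, which encodes the kinase TAK1 that activates the IκB kinases, had 327, 312 and 425 normalized counts in CD74-/- and 626, 612 and 491 in WT libraries. The groups did not overlap, at a log2 fold change of -0.70 (interval -1.36 to -0.05; limma adjusted p = 0.618). Ikbkg, the regulatory subunit of the kinase complex, overlapped, with 416, 518 and 979.6 in CD74-/- and 501, 771 and 375 in WT libraries. Nfkbie, an inhibitor of the IκB family, was at 55.8, 226 and 134 in CD74-/- and 283, 217 and 166 in WT libraries, also with overlap.

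TFIID subunits had a median log2 fold change of 0.22, with 11 of 16 positive. Taf9b had 422, 789 and 823 normalized counts in CD74-/- and 262, 203 and 359 in WT libraries, a log2 fold change of 1.28 (limma adjusted p = 0.504, DESeq2 adjusted p = 0.088). Taf3, whose protein reads methylated histone H3 at active promoters, had the opposite order, with 319, 215 and 251 in CD74-/- and 518, 336 and 612 in WT libraries (log2 fold change -0.87; limma adjusted p = 0.607). Groups of both genes did not overlap, and neither passed the test over all genes. Such an order was held by 797 tested genes in the higher and 1112 in the lower direction.

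Genes with a κB match in front of their start were described as a group as well. The 550 tested genes with a match had a median log2 fold change of -0.08, and the 9863 without one had -0.03. At an unadjusted p under 0.05, 5.82% of those with a match were lower and 3.09% higher, beside 4.93% lower and 2.98% higher of those without. A match was found for 12 of the 29 textbook target genes with a promoter entry.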

How the data were processed

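RNA of 1000 sorted CD34-/LSK cells per library was sequenced single-end on 1 lane of a HiSeq2500. The authors trimmed reads with cutadapt, discarded those under 30 bp, aligned the rest end to end with STAR 2.4.2a to GRCm38 (Ensembl release 92), assigned them to genes with htseq-count and normalized with DESeq2. The deposited values are this signal, normalized counts with 2 decimals made by the authors: reads divided by the size factor of the library. Their fold changes and p values were not used. Whole reads were recovered from the value that 1 read is worth in each library: 100% of the 101059 values above 0 came out whole, with a tolerance of 0.01 normalized counts.

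Genotypes were compared unpaired with limma 3.58.1 (R 4.3.3, trend) on log2(normalized count + 1), which understates changes of low genes, for genes with a mean of at least 10; calls needed a Benjamini-Hochberg adjusted p under 0.05. A two-sided exact permutation test of single values cannot go below 0.1. Alternatives were pseudocounts of 0.5 and 5, no filter or a mean of at least 50, a block for the replicate number, the fit without each library in turn, and DESeq2 1.42.0 (the study's settings), edgeR 4.0.16 and limma-voom on the recovered reads. Methods were tested on simulated data. Lengths and coordinates came from GENCODE vM21, promoters from RefSeq on GRCm38.p6 (6 of the 10 genes matched). The members and lists were chosen with earlier results of these data known. Named beyond the 10 genes were Taf4, Ikbkg and Nfkbie. For each list, up to 3 genes in each direction were also named, with the smallest unadjusted limma p under 0.05 and no overlap. Cd40 and Tlr1 were added after their values were seen. The 3 libraries per genotype limit the precision, reads carry no molecular identifiers, and listed genes without a row were not analysed here.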

Additional observations from a re-analysis of the deposited data

How the results depend on the processing

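None of the 10 NF-κB genes was called under any of the 14 alternatives, and 132 of their 140 alternative values kept the direction. The other 8 belong to 4 genes and all leave out 1 library. Nfkb2 was 0.28 without CD74-/- replicate 1, 0.01 without WT replicate 1 and 0.19 without WT replicate 3 (range -0.73 to 0.28); Rel was -0.08 without CD74-/- replicate 3 and -0.23 without WT replicate 2 (range -0.23 to 0.23); Tnfaip3 was -0.68 without CD74-/- replicate 3 and -0.39 without WT replicate 2 (range -0.68 to 0.83); Nfkbia was -0.10 without CD74-/- replicate 2 (range -0.10 to 0.61). The cause was not tested. Over all genes, limma called 6 higher and 7 lower; leaving out 1 library gave 5 to 23 higher and 1 to 34 lower, DESeq2 49 higher and 99 lower, and limma-voom 3 higher and 3 lower. DESeq2 called 2 genes of the wider lists, against 0 with limma. Of 98 list medians 4 moved by more than their spread, and of 56 shares 0 did. The sign of the share difference (CD74-/- minus WT, in points) still turned for Relb, Nfkb2 and Taf4b. Relb went from -0.77 to 0.61 without CD74-/- replicate 3 and 0.38 without WT replicate 3. Nfkb2 went from 0.31 to -0.40 without CD74-/- replicate 2 and -0.60 without WT replicate 2. Taf4b went from 1.65 to -1.18 without WT replicate 3. Deviations of libraries with the same number had correlations of 0.12, 0.07 and 0.02, and those with different numbers had -0.11 to 0.05. Each CD74-/- library thus correlated most with the WT library of its number, at low values. The labels do not say whether the numbers pair the mice. With a replicate block 21 genes were called lower, against 7 without it, and still 0 of the 10. With 3 libraries a group, the 95% intervals of Tnfaip3, Nfkb2, Relb, Rela, Taf4b and Chuk include changes of more than 2-fold.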
